A study of Mus musculus with 6 samples.

Results

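The elastic fibre genes are 10 genes whose protein products build the stretchable fibres of connective tissue: Eln, Fbn1, Fbn2, Fbln1, Fbln2, Fbln5, Mfap2, Mfap4, Mfap5 and Efemp2. They were looked up by gene symbol, and all 10 were found among the 20637 genes of the deposited tables. The list was chosen with earlier results of these data known, so the shares over all genes given beside it are no test. Poly(A) RNA had been sequenced from whole uteri of female Mus musculus on postnatal day 21, with 3 libraries from Nat10 f/f mice and 3 from Nat10 d/d mice. The f/f mice carry floxed Nat10 alleles and served as the controls, and the d/d mice carry the deleted alleles. The labels give neither the Cre driver nor the cells in which the deletion takes place, and they give no strain, litter or batch. They also do not say whether a library is 1 animal or a pool, so the p-values measure the spread between these libraries, which may be technical. Nat10 encodes an RNA cytidine acetyltransferase.

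An elastic fibre has an elastin core, secreted as soluble tropoelastin and crosslinked outside the cell by lysyl oxidases. The core is laid down on a scaffold of microfibrils, which are polymers of fibrillin decorated with microfibril-associated glycoproteins. Fibulins link tropoelastin to the scaffold and to the crosslinking enzymes. In the uterus the fibres lie in the myometrium, the vessel walls and the stroma, and they are known for letting the organ stretch in pregnancy and recoil after birth. Elastin is made mostly during growth and turns over slowly.

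Values are FPKM (fragments per kilobase of transcript, scaled to the total of mapped fragments), so that levels of different genes can be compared per length. The unit was inferred, and total read counts are unknown. Relative depth, estimated from the smallest values with f/f replicate 1 set to 1.00, lay between 0.81 and 1.01 in the other libraries. Nat10 itself had levels of 13.2, 16.4 and 9.95 FPKM in the f/f libraries and 5.57, 5.23 and 5.53 FPKM in the d/d libraries, without overlap (log2 change -1.11, SE 0.17; limma adjusted p 0.669). The labels do not say which exons were removed. The uterine genes Hoxa10 and Hoxa11 were at 65.8 FPKM or more in each library, and the smooth muscle myosin gene Myh11 at 490 FPKM or more, so the markers of uterus and of its muscle coat were present in each. Single libraries stood apart in some markers. The summed level of 6 proliferation markers (Mki67, Top2a, Ccnb1, Cdk1, Birc5 and Ccna2) was 152 FPKM in d/d replicate 2, against 14.2 and 7.66 FPKM in d/d replicates 1 and 3 and 15.6 to 61 FPKM in the controls. In f/f replicate 1 the adipocyte and red blood cell genes were highest, with sums of 73.5 and 5581 FPKM, against at most 15.5 and 2629 FPKM in the others.

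The mean level of each of the 10 elastic fibre genes was lower in the d/d uteri, at 52.9% (Mfap4) to 90% (Efemp2) of the control mean. In 7 of the 10 (Eln, Fbn1, Fbln1, Fbln2, Fbln5, Mfap4 and Mfap5) each d/d library lay below each control library, while 4.60% of the 12640 genes tested had groups that did not overlap with d/d lower and 6.12% with d/d higher. The log2 changes ran from -0.96 to -0.17 with a median of -0.40, against a median of 0.03 over all genes tested, 43.4% of which were lower. None of the 10 passed an adjusted p of 0.05 in limma, where 0% of the genes tested did, and their adjusted p-values lay between 0.922 and 0.95. At an unadjusted p under 0.05 there were 5 of the 10, all lower (Eln, Fbln1, Fbln2, Mfap4 and Mfap5), beside 2.30% of the genes tested with d/d lower, 2.68% with d/d higher and 4.98% in either direction. Scaling moved that background: the genes at an unadjusted p under 0.05 were 339 higher and 291 lower as deposited, 248 and 376 with median centring, 259 and 414 with quantile normalization and 232 and 399 with upper-quartile scaling. Of the members, 7, 8 and 7 were at an unadjusted p under 0.05 under these 3 scalings. The members without overlap numbered 7, 8 and 7 as well, beside 6.43%, 6.55% and 6.62% of the genes tested. With limma's array quality weights, which weight each library by its estimated precision, 3 members were called (Eln, Fbln2 and Mfap4, with adjusted p-values of 0.0386, 0.0422 and 0.0386), beside 1.34% of the genes tested called as lower and 1.16% called as higher. In whole-organ RNA, fewer cells of a type and less RNA per cell cannot be told apart.

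**Figure D1:**
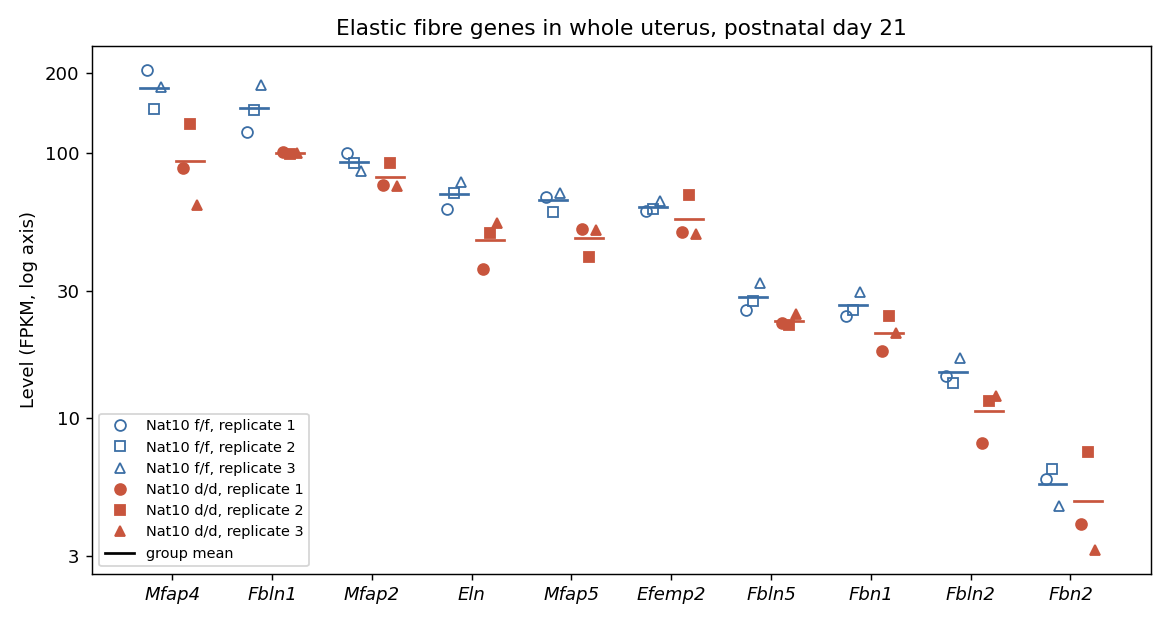
Level of each elastic fibre gene (FPKM, log axis) in the 3 Nat10 f/f libraries (open symbols) and the 3 Nat10 d/d libraries (filled symbols), with replicates 1, 2 and 3 as circles, squares and triangles and the group mean as a line. Genes are ordered by control mean, and the filled symbols lie below the open ones without overlap in 7 of the 10 genes.

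The elastin gene Eln (ENSMUSG00000029675), on chromosome 5 (chr5:134702593-134747323, minus strand, mm10), codes for the core protein. Its levels were 61.4, 70.9 and 77.7 FPKM in f/f replicates 1, 2 and 3 and 36.4, 49.7 and 54.6 FPKM in d/d replicates 1, 2 and 3. The highest d/d library was thus below the lowest control, and d/d replicate 1 was the lowest of the 6. The means were 70 ± 8.2 FPKM (SD, n = 3) and 46.9 ± 9.38 FPKM (SD, n = 3), or 67% of control. The log2 change was -0.58 (SE 0.17; 95% interval -0.98 to -0.18; limma adjusted p 0.922). By exact permutation of the libraries the two-sided p was 0.1 for Eln and for the other 6 genes without overlap, and a design of this size cannot give a smaller one. Without d/d replicate 1 the log2 change of Eln was -0.41, and without d/d replicate 2 it was -0.63.

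The fibrillins form the backbone of the microfibril, and fibrillin-2 is the form made chiefly in fetal tissue. Fbn1 (ENSMUSG00000027204), on chromosome 2 (chr2:125300594-125507993), had levels of 24.3, 25.5 and 29.9 FPKM in the controls and 17.8, 24.2 and 20.9 FPKM in d/d replicates 1, 2 and 3. The groups did not overlap, but d/d replicate 2 at 24.2 FPKM and f/f replicate 1 at 24.3 FPKM nearly touched. Fbn1 differed by -0.33 on the log2 scale (SE 0.14; limma adjusted p 0.922), -0.44 without d/d replicate 2 and -0.22 without d/d replicate 1. Fbn2 (ENSMUSG00000024598) had levels of 5.84, 6.37 and 4.62 FPKM in the controls and 3.98, 7.4 and 3.17 FPKM in the d/d libraries. Here d/d replicate 2 was the highest of all 6 libraries and the other d/d libraries were below the controls. Fbn2 had a log2 change of -0.23 (SE 0.26; 95% interval -0.84 to 0.37), -0.53 without d/d replicate 2, -0.35 without f/f replicate 3, -0.15 without d/d replicate 1 or f/f replicate 2, and -0.02 without d/d replicate 3. The level of Fbn2 divided by that of Fbn1 averaged 0.215 in controls (SD 0.0525, n = 3) and 0.227 in d/d uteri (SD 0.0769, n = 3), so fibrillin-1 was the more abundant fibrillin transcript in both groups.

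The microfibril-associated glycoproteins are small proteins that bind fibrillin. Mfap2 and Mfap5 are paralogs, and Mfap4 is an unrelated fibrinogen-domain protein that binds tropoelastin and microfibrils. Mfap4 (ENSMUSG00000042436), on chromosome 11 (chr11:61485431-61488900), had levels of 206, 147 and 177 FPKM in controls and 87.8, 129 and 63.7 FPKM in d/d replicates 1, 2 and 3. Its control mean was the highest of the 10 genes, although Fbln1 was above it in f/f replicate 3. The groups were separate although the d/d libraries were spread widely, with a coefficient of variation of 35.4%, which among the 10 genes only that of Fbn2 (46.2%) exceeded. This was the largest difference among the 10 genes: the means were 177 ± 29.5 FPKM (SD, n = 3) and 93.5 ± 33.1 FPKM (SD, n = 3), a log2 change of -0.96 (SE 0.25; 95% interval -1.55 to -0.36; limma adjusted p 0.922). Leaving out single libraries gave -1.22 without d/d replicate 2, -0.71 without d/d replicate 3, the lowest library, and -0.84 without f/f replicate 1, the highest.

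Mfap5 (ENSMUSG00000030116), on chromosome 6 (chr6:122505845-122529290), had levels of 68, 60.1 and 70.8 FPKM in controls and 51.5, 40.4 and 51.1 FPKM in the d/d libraries. Its lowest library was d/d replicate 2, unlike that of Mfap4. On the log2 scale Mfap5 differed by -0.47 (SE 0.13; 95% interval -0.78 to -0.16; limma adjusted p 0.922). Mfap2 (ENSMUSG00000060572), on chromosome 4 (chr4:141010418-141015984), had levels of 99.9, 91.8 and 85.2 FPKM in controls and 76, 91.9 and 75.3 FPKM in d/d uteri. In Mfap2, d/d replicate 2 lay inside the control range and the other d/d libraries lay below it. On the log2 scale Mfap2 differed by -0.19 (SE 0.12; 95% interval -0.48 to 0.10), and -0.28 without d/d replicate 2. The level of Mfap5 divided by that of Mfap2 averaged 0.722 in controls (SD 0.0954, n = 3) and 0.599 in d/d uteri (SD 0.138, n = 3), with overlap (exact permutation p 0.4; 0.667 adjusted over 5 ratios). The log2 difference of this ratio was -0.29, and -0.08 without d/d replicate 2 and -0.19 without f/f replicate 3.

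Fibulins are secreted glycoproteins with repeated EGF-like domains. Fbln5 and Efemp2 (fibulin-4) are the short fibulins that elastic fibre assembly requires, and Fbln1 and Fbln2 code for larger forms found in elastic fibres and basement membranes. Fbln1 (ENSMUSG00000006369), on chromosome 15 (chr15:85205949-85286535), had levels of 120, 145 and 180 FPKM in controls and 101, 99.2 and 100 FPKM in d/d replicates 1, 2 and 3. The d/d libraries were nearly equal, with a coefficient of variation of 0.843% against 20.2% in controls. For Fbln1 the log2 change was -0.54 (SE 0.15; 95% interval -0.90 to -0.18; limma adjusted p 0.922), and it was -0.40 without f/f replicate 3, the highest control. Fbln2 (ENSMUSG00000064080), on chromosome 6 (chr6:91212455-91272540), had levels of 14.4, 13.5 and 16.8 FPKM in controls and 8, 11.6 and 12.1 FPKM in d/d uteri. As for Eln, d/d replicate 1 was the lowest library. Fbln2 had a log2 change of -0.47 (SE 0.17; limma adjusted p 0.922), and it was -0.30 without d/d replicate 1.

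Fbln5 (ENSMUSG00000021186), on chromosome 12 (chr12:101746565-101819055), had levels of 25.5, 27.7 and 32.2 FPKM in controls and 22.7, 22.3 and 24.7 FPKM in d/d uteri. The gap between the groups was narrow, with 24.7 FPKM in d/d replicate 3 and 25.5 FPKM in f/f replicate 1. The log2 change of Fbln5 was -0.28 (SE 0.12; 95% interval -0.56 to 0.00; limma adjusted p 0.922). Efemp2 (ENSMUSG00000024909), on chromosome 19 (chr19:5473954-5482517), had levels of 60.2, 61.5 and 65.7 FPKM in controls and 50.1, 69.1 and 49.5 FPKM in d/d uteri. Replicate 2 of the d/d group was above every control and the other d/d libraries were below every control. Efemp2 had a log2 change of -0.17 (SE 0.15; 95% interval -0.51 to 0.18), -0.32 without d/d replicate 2, -0.09 without d/d replicate 1 and -0.08 without d/d replicate 3. The ratio of Fbln5 to Efemp2 averaged 0.455 in controls (SD 0.0341, n = 3) and 0.425 in d/d uteri (SD 0.0913, n = 3; exact permutation p 0.9; 1 adjusted over 5 ratios).

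Upstream sequence from RefSeq (GRCm38.p6) was available for 6 of the 10 genes. The 250 bases before a start site are shown for the 3 fibulin genes whose window holds no annotated exon, because Fbln1 and Fbln5 were lower without overlap and Efemp2 was not. They run 5′ to 3′ on the gene's strand, at chr15:85205699-85205948 (plus) for Fbln1, chr12:101819120-101819369 (minus) for Fbln5 and chr19:5473696-5473945 (plus) for Efemp2. Capitals mark the GC box (GGGCGG), the SMAD-type motif (CAGAC), the TATA motif (TATAAA) and the AP-1 motif (TGANTCA) on either strand.
Fbln1: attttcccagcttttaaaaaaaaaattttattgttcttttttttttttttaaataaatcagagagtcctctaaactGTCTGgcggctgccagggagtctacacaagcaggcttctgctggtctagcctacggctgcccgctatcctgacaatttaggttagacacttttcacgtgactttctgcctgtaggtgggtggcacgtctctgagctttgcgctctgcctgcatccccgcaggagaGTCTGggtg
Fbln5: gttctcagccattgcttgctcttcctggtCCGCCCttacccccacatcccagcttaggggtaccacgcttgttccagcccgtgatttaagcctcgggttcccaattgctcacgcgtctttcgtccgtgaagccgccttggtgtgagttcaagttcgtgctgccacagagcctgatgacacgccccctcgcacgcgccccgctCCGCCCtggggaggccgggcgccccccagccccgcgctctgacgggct
Efemp2: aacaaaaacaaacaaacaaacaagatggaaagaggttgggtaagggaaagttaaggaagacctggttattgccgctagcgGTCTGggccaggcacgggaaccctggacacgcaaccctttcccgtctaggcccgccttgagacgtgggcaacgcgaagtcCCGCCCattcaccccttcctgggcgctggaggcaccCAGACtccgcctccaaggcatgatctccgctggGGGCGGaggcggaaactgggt
The Fbln1 window held 2 CAGAC matches and no GC box, the Fbln5 window 2 GC boxes and no CAGAC, and the Efemp2 window 2 of each. The TATA and AP-1 motifs were in none of the 3. Over all 32851 upstream windows of this length, 32.7% held GGGCGG, 42.2% CAGAC, 12.4% TATAAA and 6.75% TGANTCA. GC content was 46.4% for Fbln1, 65.2% for Fbln5 and 59.2% for Efemp2, against a median of 52.4%. RefSeq lists other start sites for each of these 3 genes, whose windows hold annotated exon bases and other matches. The other Fbln1 window held 1 GC box and 2 CAGAC matches, the other Fbln5 window no GC box and 2 CAGAC matches, and each of the 2 other Efemp2 windows 5 GC boxes and no CAGAC. The counts therefore depend on the start site, and they set no gene apart. A match is a description of the letters and not a binding site.

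In the controls the order of mean levels was Mfap4, Fbln1, Mfap2, Eln, Mfap5, Efemp2, Fbln5, Fbn1, Fbln2 and Fbn2, a span of 31.5-fold. Control ranges overlapped between Mfap4 and Fbln1, between Eln, Mfap5 and Efemp2 as neighbours, and between Fbln5 and Fbn1, so these neighbours were not separated by the spread over libraries. Within each control library, however, Fbln5 was above Fbn1, while the order of the other overlapping neighbours differed between libraries. In d/d uteri Fbln1 came before Mfap4, Efemp2 was 4th and Eln 6th, and the other 6 kept their place. The summed level of the 10 genes was 686, 650 and 740 FPKM in the controls and 455, 545 and 455 FPKM in the d/d libraries.

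The members did not all follow the same pattern among the d/d libraries. Relative to the control mean, the median over the 10 genes was -0.47, -0.33 and -0.34 log2 units in d/d replicates 1, 2 and 3, against -0.04 to 0.13 in the controls. All 10 genes were below every control in d/d replicates 1 and 3, and 7 of them were in d/d replicate 2. Replicate 2 was the highest d/d library for 5 genes (Fbn1, Fbn2, Mfap2, Mfap4 and Efemp2) and the lowest for 3 (Fbln1, Fbln5 and Mfap5). Without it the groups did not overlap for all 10 genes, beside 14.2% of the genes then tested, and the median log2 change was -0.48 with no member called by limma. The part of the proliferation markers, which were highest in that library, was not tested.

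**Figure D2:**
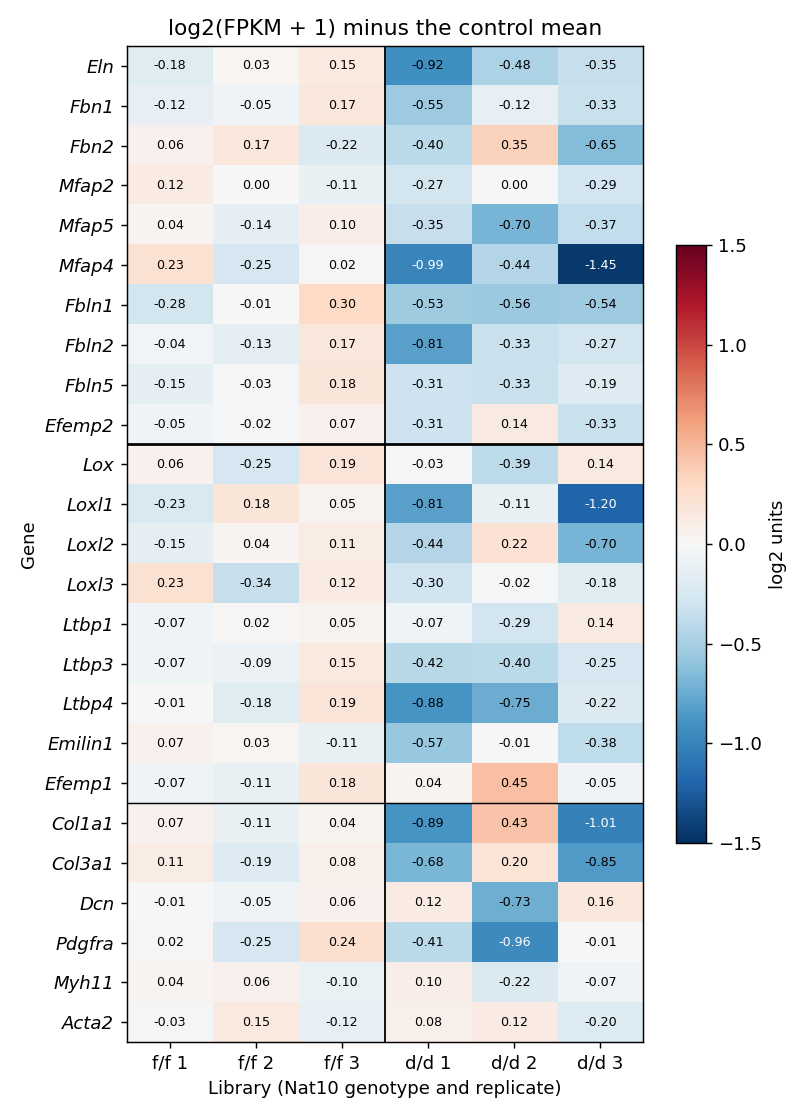
Each cell gives log2(FPKM + 1) of a gene (row) in a library (column) minus the mean of the 3 control libraries, for the 10 elastic fibre genes (top), their crosslinking and microfibril partners (middle) and stromal and smooth muscle genes (bottom). The d/d columns are blue for most elastic fibre genes, while Col1a1 and Col3a1 are red in d/d replicate 2 and Myh11 and Acta2 lie between -0.22 and 0.15.

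Lysyl oxidases oxidise lysines of tropoelastin and collagen so that crosslinks form. Of the 5 family members, 4 were tested, all 4 had lower means in d/d uteri, none was called by limma without weights, and the median log2 change was -0.24. None of the 4 had groups without overlap, but 2 did without d/d replicate 2, beside 14.2% of the genes then tested, and there the median was -0.41. Lox, the founding member, was at 31.9, 25.4 and 35 FPKM in controls and 29.9, 23 and 33.6 FPKM in d/d uteri, with overlapping groups and a log2 change of -0.09 (95% interval -0.51 to 0.32). Loxl1, which is targeted to elastin by fibulin-5, was at 23.3, 31.5 and 28.7 FPKM in controls and 15.3, 25.5 and 11.4 FPKM in d/d replicates 1, 2 and 3. Its d/d replicate 2 lay inside the control range and the other d/d libraries below it. The log2 change of Loxl1 was -0.71 (SE 0.27; limma adjusted p 0.922), -1.01 without d/d replicate 2 and -0.46 without d/d replicate 3. With array quality weights Loxl1 was called, at -0.77 (limma adjusted p 0.0466), beside 1.34% of all genes tested called as lower. Loxl2 and Loxl3 had log2 changes of -0.31 and -0.17 with overlap, and Loxl4 was under 1 FPKM in each library and was not tested.

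The ratio of Lox to Eln within a library was 0.52, 0.358 and 0.45 in controls and 0.821, 0.463 and 0.616 in d/d uteri. The d/d mean was higher (0.633 ± 0.18 against 0.443 ± 0.0811; SD, n = 3), but d/d replicate 2 lay inside the control range (exact permutation p 0.2; 0.667 adjusted over 5 ratios). The log2 difference was 0.49, and leaving out single libraries gave 0.29 (without d/d replicate 1) to 0.70 (without d/d replicate 2). The ratio of Eln to Fbn1, core to scaffold, was 2.53, 2.79 and 2.6 in controls and 2.05, 2.05 and 2.61 in d/d uteri. Replicate 3 of the d/d group had the ratio of a control and the other d/d libraries were below the controls (exact permutation p 0.3; 0.667 adjusted). The exact permutation p for Fbn2 over Fbn1 was 1. None of the 5 ratios separated the groups.

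**Figure D3:**
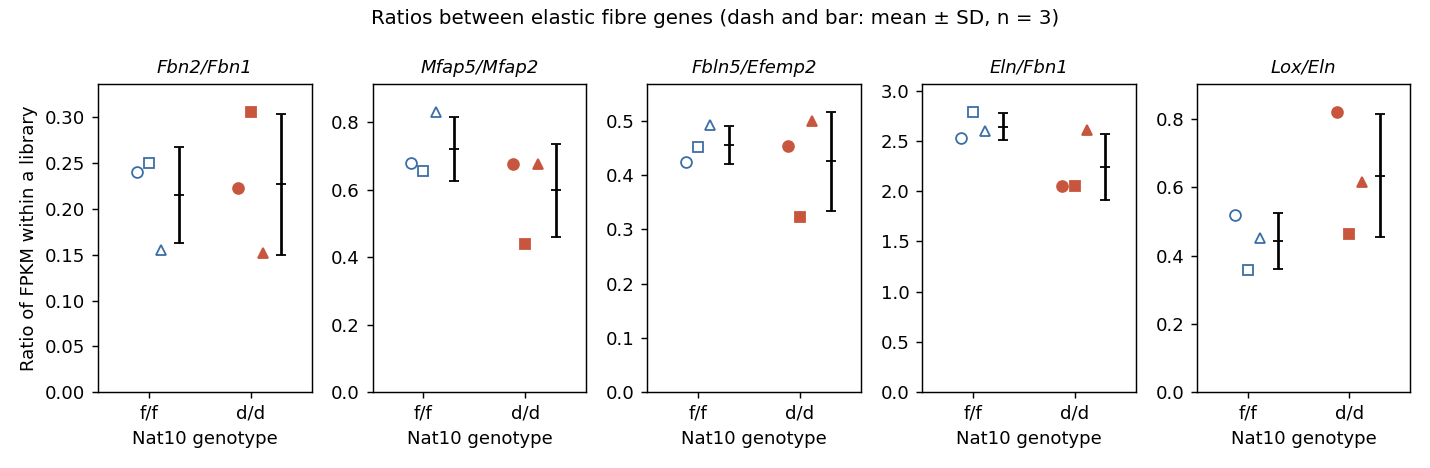
Ratio of the FPKM of 2 genes within the same library, for 5 pairs, in Nat10 f/f (open symbols) and d/d (filled symbols) libraries, with replicates 1, 2 and 3 as circles, squares and triangles and the mean ± SD beside them. The groups overlap in each panel, and the vertical axes start at 0.

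Latent TGF-beta binding proteins, emilins and ADAMTS-like proteins bind microfibrils or help to assemble them. Of the 15 genes on this list, 14 were tested, 12 had lower and 2 higher means, none was called by limma without weights, and the median log2 change was -0.21. Ltbp4, whose product carries fibulin-5 to microfibrils and holds latent TGF-beta, was the most abundant gene of the list. Its levels were 300, 265 and 344 FPKM in controls and 163, 178 and 259 FPKM in d/d replicates 1, 2 and 3, without overlap, although d/d replicate 3 at 259 FPKM came close to f/f replicate 2 at 265 FPKM. The log2 change of Ltbp4 was -0.62 (SE 0.19; 95% interval -1.07 to -0.16; limma adjusted p 0.922). Emilin1, coding for a glycoprotein at the interface of elastin and microfibrils, had overlapping groups and a log2 change of -0.32 (95% interval -0.68 to 0.05), -0.19 without d/d replicate 1 and -0.48, without overlap, when d/d replicate 2 was left out. With array quality weights these 2 of the 14 were called as lower, Ltbp4 at -0.81 (limma adjusted p 0.0396) and Emilin1 at -0.53 (adjusted p 0.046), beside 1.34% of all genes tested. Efemp1 (fibulin-3), the closest relative of Efemp2 and Fbln5, was at 55.4, 54.1 and 66.2 FPKM in controls and 60, 79.8 and 56.4 FPKM in d/d uteri, a log2 change of 0.15 (95% interval -0.22 to 0.52). Beside Ltbp4, the groups did not overlap, with d/d lower, for Ltbp3, Adamts10 and Hmcn1, which are named after their values were seen. That makes 4 of 14, beside 4.60% of all genes tested, or 7 of 14 without d/d replicate 3, beside 14.7% of the genes then tested. Adamtsl2, also named afterwards, was at 0.322, 0.274 and 0.23 FPKM in controls and 0.715, 0.532 and 0.567 FPKM in d/d uteri, too low to be tested.

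**Figure D4:**
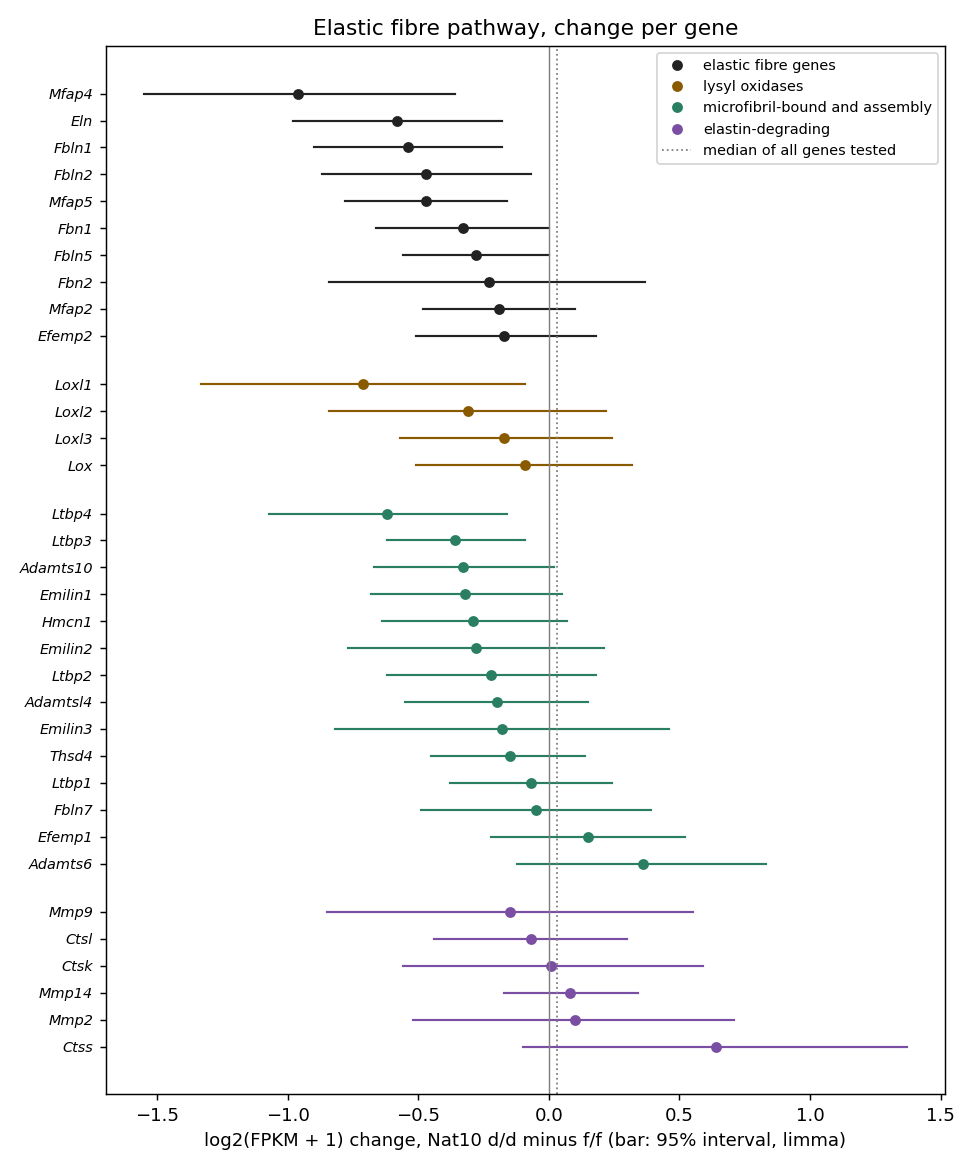
Change in log2(FPKM + 1) between Nat10 d/d and f/f uteri (horizontal axis, points) with its 95% interval from limma (bars), for tested genes of 4 groups (colours, one gene per row). All 10 elastic fibre genes lie left of 0, from -0.96 for Mfap4 to -0.17 for Efemp2, and the elastin-degrading proteases lie on both sides.

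Elastin and microfibrils are degraded by metalloproteinases, cathepsins and neutrophil elastase. Of 9 such genes, 6 were tested, 4 had higher and 2 lower means, none was called by limma without weights, and the median log2 change was 0.05 (-0.02 without f/f replicate 2 to 0.13 without d/d replicate 1). The most abundant, Mmp2, coding for gelatinase A, was at 158, 165 and 203 FPKM in controls and 134, 285 and 169 FPKM in d/d uteri, with d/d replicate 2 the highest and d/d replicate 1 the lowest library. Ctsl (log2 change -0.07) and Mmp14 (0.08) had overlapping groups. Ctss, coding for the elastin-degrading cathepsin S and named after its values were seen, had the largest change of the 6, with 10.1, 14.7 and 17.5 FPKM in controls and 30.5, 13.2 and 25.8 FPKM in d/d uteri. Its d/d replicate 2 lay inside the control range and the other d/d libraries above it. Ctss differed by 0.64 on the log2 scale (SE 0.31; limma adjusted p 0.922), 0.98 without d/d replicate 2 (adjusted p 0.146), 0.41 without d/d replicate 1, 0.43 without f/f replicate 1 and 1.08 with array quality weights (adjusted p 0.047). That weighted call stands beside 1.16% of all genes tested called as higher. The classical elastases Mmp12 and Elane were listed at 0.187 FPKM or less in each library. Mmp7, named after its values were seen, was at 0.0853, 0.523 and 0.382 FPKM in controls and 1.89, 0.757 and 1.33 FPKM in d/d uteri, and it did not reach the level required for the test.

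Genes that mark cell types, including those which make elastic fibres, were set beside the members. The 8 smooth muscle markers had a median log2 change of -0.01 (-0.10 to 0.07 when single libraries were left out), with 4 lower and 4 higher, and summed levels of 4127 to 4742 FPKM in controls and 3838 to 4891 FPKM in d/d uteri. The 8 stromal fibroblast markers had a median log2 change of -0.25, with 7 lower and 1 higher, and -0.39 without d/d replicate 2, where 5 of the 8 did not overlap with d/d lower in place of 1 and 1 (Dcn) with d/d higher, beside 14.2% lower and 17.5% higher of the genes then tested. They had summed levels of 3823 to 4376 FPKM in controls and 2960 to 4460 FPKM in d/d uteri. Their summed levels in the d/d group were 3140, 4460 and 2960 FPKM in replicates 1, 2 and 3, so the stromal sum in replicate 2 was above each control while those of replicates 1 and 3 were below. The collagen genes carried this sum, and Lum (231 FPKM) and Vcan (32.6 FPKM) were also higher in replicate 2 than in any other library. Pdgfra (39.5 FPKM), Dcn (646 FPKM) and Tcf21 (69.6 FPKM) were lower there than in any other library. For Tcf21 the margin was narrow, with 70.6 FPKM in d/d replicate 1. All 6 endothelial markers had lower means (median log2 change -0.26, and -0.17 without d/d replicate 1), and their summed levels did not overlap, at 244 to 274 FPKM in controls and 211 to 233 FPKM in d/d uteri. Of the 5 perivascular markers 4 were lower (median -0.25, and -0.38 to -0.14 when single libraries were left out; sums of 226 to 252 and 218 to 241 FPKM), and of the 6 epithelial markers 5 were higher (median 0.17, and 0.11 without d/d replicate 3 or f/f replicate 1; 0.26 without f/f replicate 3; sums of 584 to 680 and 651 to 751 FPKM). The medians were -0.31 for 5 mesothelial genes (-0.49 to -0.22 when single libraries were left out), -0.08 for 6 leukocyte genes (-0.25 without f/f replicate 1 to 0.10 without f/f replicate 3) and -0.98 for 5 red blood cell genes (-0.47 without f/f replicate 1 to -1.68 without f/f replicate 3), with red blood cell sums of 851 to 5581 FPKM in controls and 709 to 1723 FPKM in d/d uteri. With all libraries, the groups of 2 of the 6 endothelial and 2 of the 5 mesothelial markers did not overlap, with d/d lower. The same held for 1 perivascular, 1 stromal and 1 smooth muscle marker, beside 4.60% of all genes tested. With d/d higher, 2 of the 6 epithelial markers did not overlap, beside 6.12% of all genes tested. No gene of these lists was called by limma without weights. With array quality weights 5 were called as lower (Kdr and Tie1 of the endothelial, Notch3 of the perivascular, Lrrn4 of the mesothelial and Col1a1 of the stromal list) and Cldn7 of the epithelial list as higher, beside 1.34% and 1.16% of all genes tested. Without d/d replicate 2 Col1a1 was called as lower, among 8 genes called as lower of the 12531 then tested. The adipocyte sum was 73.5 FPKM in f/f replicate 1 and 2 to 15.5 FPKM in the others, with Lep listed at 0 in 5 of the 6 libraries. The part of any of these cell types in the lower elastic fibre levels was not tested.

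The genes whose pattern was most like that of Eln were found among 9996 tested genes with a mean of at least 5 FPKM. The measure was the mean absolute difference from Eln over the 6 libraries, after the control mean of each gene had been subtracted on the log2 scale. The closest were Gcnt3, coding for a mucin-type glycosyltransferase (0.0531 log2 units), Cacna1g, a T-type calcium channel subunit (0.0729), Stab1, a scavenger receptor (0.079), Tmem132c (0.085) and Sntb2, a syntrophin (0.0987). Among the other elastic fibre genes Fbln2 ranked 9th (0.108), Fbn1 45th (0.151) and Fbln1 55th (0.156). Fbln5 ranked 77th and Mfap5 206th, while Efemp2 ranked 609th, Mfap2 1470th, Mfap4 3024th and Fbn2 5672nd.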

How the data were processed

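The authors deposited 1 table per library with an Ensembl identifier, a symbol and 1 value per gene. The unit, FPKM, was inferred from the deposited values, which are not whole and sum to between 500764 and 549263 per library. HISAT2 2.2.1, Cufflinks 2.2.1 and build mm10 are named, per the submitters' processing notes, and the annotation, filters and strandedness are not given in the sources used here. Without strand, reads of Eln, Fbn1, Fbn2, Mfap4 and Efemp2 cannot be told from those of antisense genes that share exon bases with them in GENCODE M21 (GRCm38, the build mm10 names), from 89 bases (Mfap4 with Mapk7) to 2442 bases (Fbn1 with Gm9913).

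Groups came from the sample titles. Genes with at least 1 FPKM in at least 3 libraries were tested (12640, including all 10 members) as log2(FPKM + 1) with limma 3.58.1 in R 4.3.3 (eBayes with trend, group as the only term), with Benjamini-Hochberg adjustment over all of them. Fold changes on this scale understate those of low genes. Single values were also compared by exact two-sided permutation (scipy 1.17.1). The fit was tested on simulated data. The rule for named genes took the 10 members, Nat10, the 5 lysyl oxidases, the 3 most abundant genes of the other pathway lists and the 5 genes most like Eln. Members and lists were chosen with earlier results of these data known.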

Additional observations from a re-analysis of the deposited data

How the results depend on the processing

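All 10 elastic fibre genes had lower means in d/d uteri under each of the 15 alternatives (3 scalings, 2 filters, pseudocount 0.1, no trend, array quality weights, the replicate block and leaving out each library). The number without overlap was 7 to 10, with 10 only without d/d replicate 2, where 14.2% of all genes tested did not overlap with d/d lower, against 4.60% with all libraries. Array quality weights called 316 genes in limma against 0, of which 3 were members (Eln -0.81, adjusted p 0.0386; Fbln2 -0.73, adjusted p 0.0422; Mfap4 -1.05, adjusted p 0.0386), beside 1.34% of genes called as lower; over all alternatives the limma adjusted p of each member reached up to 1. Leaving out single libraries gave 0 to 12 called genes, 12 without d/d replicate 2, and a median log2 change of the members from -0.48 to -0.28, the latter without d/d replicate 1. The member median was -0.43 with median centring and -0.44 with quantile normalization or upper-quartile scaling. The log2 ratio of Fbn2 to Fbn1 (d/d minus f/f, 0.05) ranged from -0.19 to 0.31 when single libraries were left out, with -0.17 without f/f replicate 3 and -0.19 without d/d replicate 2, and that of Fbln5 to Efemp2 (-0.12) ranged from -0.25 to 0.07, the latter without d/d replicate 2. The cause of these moves was not tested. Same-numbered libraries did not deviate together (correlations of -0.34, -0.03 and 0.10, and 1 of 6 libraries closest to its own number). With the replicate block, 0 genes were called (726 at an unadjusted p under 0.05, against 630), the member median was -0.40 and Eln had an adjusted p of 0.849 in limma. The DESeq2 alternative was not run, because the tables hold no counts. Absolute depth is unknown, so no counting intervals are given.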

Other observations

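Eln, Fbln1, Mfap4 and Mfap5 were also set against a collagen gene and a muscle gene in the same library. This comparison was chosen after the values were seen, and these genes had the lowest unadjusted p-values of all members in limma. The other members were not compared in this way. Per unit of Col3a1, the gene of the fibrillar collagen III chain, Eln was at 0.0424, 0.0601 and 0.0547 in controls and 0.0434, 0.0322 and 0.0731 in d/d replicates 1, 2 and 3. The ratios of Fbln1 and Mfap5 to Col3a1 overlapped between the groups as well, and in each of these 3 ratios d/d replicate 2 was the lowest library. The ratio of Mfap4 to Col3a1 was 0.142, 0.124 and 0.125 in controls and 0.105, 0.0838 and 0.0853 in d/d uteri, without overlap (exact permutation p 0.1, the smallest possible). Per unit of Myh11, the smooth muscle myosin gene, the groups did not overlap for Eln (0.105, 0.119 and 0.146 in controls; 0.0595, 0.101 and 0.101 in d/d uteri), Fbln1 and Mfap5, and they overlapped for Mfap4. Each of the members compared had groups without overlap before the division, and Myh11 itself had a log2 change of -0.06. These ratios were not computed for the other genes tested, so no share over all genes can be set beside them.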
